A study of Mus musculus with 9 samples.

Results

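The mammalian circadian clock genes and Nfil3 were examined in primary mouse osteoblasts, the bone-forming cells, after a short exposure to parathyroid hormone peptides. The set was a list of 10 genes: Clock, Per1, Per2, Per3, Cry1, Cry2, Nr1d1, Nr1d2, Dbp and Nfil3. Each gene was read from an array transcript cluster (the probe group for one transcript region) whose only annotated symbol is that gene, and 9 of the 10 genes had such a cluster, of 22180 genes in all. Per2 shares its cluster with another symbol and was not analysed here. None of the 9 had a second cluster of this kind. The cells came from the calvaria, the skull cap, of C57BL/6J mice aged 7 to 10 days, were differentiated from day 3 at passage 2, and on day 10 were kept without serum for 24 h before treatment. Treatment lasted 4 h and was 100 nM human parathyroid hormone (1-34), hPTH(1-34), 1 µM of bovine parathyroid hormone (7-34) amide in which residue 12 is D-tryptophan and residue 34 is tyrosine, bPTH(7-34), or vehicle, with 3 arrays per group. hPTH(1-34) activates the parathyroid hormone receptor Pth1r and so raises cAMP, whereas bPTH(7-34) blocks that cAMP response at the same receptor. The doses of the peptides differ, so a difference between them compares these arrays and not matched doses. Cells were prepared separately for each replicate, but no label tells whether the 3 treatments of a replicate number came from the same preparation, so p-values measure the spread between these samples.

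The clock is a feedback loop that runs in most cells, osteoblasts included. CLOCK and BMAL1 (gene symbol Arntl on this array) bind E-box sequences and switch on the Per, Cry, Nr1d and Dbp genes. PER and CRY proteins then repress CLOCK and BMAL1, while the Nr1d genes encode REV-ERB alpha and beta, which compete with ROR activators and repress Arntl, Clock, Cry1 and Nfil3 through ROR elements. Dbp and Nfil3 encode bZIP factors that act on the same DNA sequence, the D-box, with DBP as an activator and NFIL3 as a repressor. In many cell types Per1 also answers to cAMP through the factor CREB, which binds the cAMP response element or CRE. The labels give no clock time or phase of the cells, and a single time after treatment was measured.

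Promoters are shown because the factors of the loop act through short DNA motifs near their target genes. RefSeq promoter windows (build GRCm38.p6, 250 bases before to 50 after an annotated start) were found for 9 of the 10 genes, in 12 windows, and those of Nfil3, Per3, Cry1 and Per1 are printed 5′ to 3′ along the gene's strand. Capitals mark every match, on either strand, to the CRE core TGACG, the full CRE TGACGTCA, the E-box CACGTG, the D-boxes TTATGTAA and TTACGTAA, or the core AGGTCA of a ROR element, where the CRE core is also part of the full one. The Nfil3 window is chr13:52980990-52981289 (minus strand), the Per3 window chr4:151044616-151044915 (minus strand) and the Cry1 window chr10:85185005-85185304 (minus strand). The upstream Per1 window is chr11:69098699-69098998 and the downstream one chr11:69099902-69100201 (both plus strand).
Nfil3: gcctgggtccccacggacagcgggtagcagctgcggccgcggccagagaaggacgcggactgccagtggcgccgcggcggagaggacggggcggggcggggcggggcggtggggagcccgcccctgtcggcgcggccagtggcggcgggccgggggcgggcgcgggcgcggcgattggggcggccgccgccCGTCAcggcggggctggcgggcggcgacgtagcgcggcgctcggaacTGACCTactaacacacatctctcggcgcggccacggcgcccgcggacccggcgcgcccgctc
Per3: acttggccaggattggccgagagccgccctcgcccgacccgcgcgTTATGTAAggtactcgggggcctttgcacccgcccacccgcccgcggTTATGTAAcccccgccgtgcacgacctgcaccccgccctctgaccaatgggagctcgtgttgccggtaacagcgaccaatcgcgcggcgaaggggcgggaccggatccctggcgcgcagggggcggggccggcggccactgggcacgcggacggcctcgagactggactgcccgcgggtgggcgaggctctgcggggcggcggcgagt
Cry1: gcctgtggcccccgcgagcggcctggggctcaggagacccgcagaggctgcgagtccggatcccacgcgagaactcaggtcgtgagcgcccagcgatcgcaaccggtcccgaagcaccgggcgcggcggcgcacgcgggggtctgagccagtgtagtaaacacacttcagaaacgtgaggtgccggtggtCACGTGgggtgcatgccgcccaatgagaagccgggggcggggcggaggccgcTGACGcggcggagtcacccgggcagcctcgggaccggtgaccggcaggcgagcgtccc
Per1 upstream: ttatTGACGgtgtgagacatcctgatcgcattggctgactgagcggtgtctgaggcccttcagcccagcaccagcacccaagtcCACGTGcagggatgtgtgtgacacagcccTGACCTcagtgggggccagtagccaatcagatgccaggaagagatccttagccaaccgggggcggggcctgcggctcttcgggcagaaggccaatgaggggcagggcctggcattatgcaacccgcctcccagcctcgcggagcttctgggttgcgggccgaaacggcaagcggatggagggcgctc
Per1 downstream: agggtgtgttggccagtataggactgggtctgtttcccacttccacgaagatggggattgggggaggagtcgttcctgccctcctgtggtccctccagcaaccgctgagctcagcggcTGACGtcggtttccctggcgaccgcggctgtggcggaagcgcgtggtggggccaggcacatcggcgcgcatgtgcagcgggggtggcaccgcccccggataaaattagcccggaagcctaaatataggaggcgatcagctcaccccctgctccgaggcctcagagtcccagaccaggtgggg

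The Per3 window held 2 D-boxes, TTATGTAA each time. A D-box was found in 1.06% of all 32851 promoter windows and 2 or more in 0.0244%, which is 8 windows. Of the 12 windows, the E-box was found in the Cry1 window and the upstream Per1 window, against 7.15% of all windows. A CRE core was present in windows of 4 of the 9 genes (Nfil3, Per1, Cry1 and Cry2), against 23.0% of all 27025 genes with a window, and a full CRE in 0 of the 9, against 2.03% of all genes. The ROR element core was present for 4 of the 9 (Nfil3, Per1, Nr1d2 and Clock), against 18.1% of all genes. The D-box and E-box shares are of windows. The CRE and ROR element shares count a gene once if any of its windows holds the motif, and the 9 genes, with 12 windows, have more windows per gene than the rest. A match is a string of letters and not a site shown to be bound, and sites outside these windows were not searched.

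All levels are log2 RMA values, the authors' normalised array scale, on which 1 unit is a 2-fold difference. Array medians ran from 1.67 to 1.76, and over all 41345 clusters 2 arrays of the same treatment correlated at 0.977 to 0.982 and 2 arrays of unlike treatment at 0.972 to 0.985. Of 7 measured osteoblast markers, 5 stayed on each array above a limit of background of 1.69, below which 95% of 1105 olfactory receptor genes averaged with vehicle. These were the collagens Col1a1 (12.14 to 12.42) and Col1a2 (11.49 to 11.84), the phosphatase gene Alpl (5.26 to 6.73), the receptor gene Pth1r (4.01 to 5.08) and the matrix gene Ibsp (2.29 to 5.09), while Sp7 and Bglap did not stay above it. Of the markers of other cells, 5 of 6 macrophage and osteoclast genes, 4 of 5 adipocyte genes, 3 of 4 chondrocyte genes, 2 of 4 skeletal muscle genes and 1 of 4 endothelial genes lay above that limit on all arrays. The summed adipocyte markers spanned 8.10 to 8.95 with hPTH(1-34), 7.92 to 8.53 with bPTH(7-34) and 7.65 to 8.19 with vehicle (log2 of the sum), and their part in the results was not tested. In such bulk samples fewer cells of a type and less RNA per cell cannot be told apart. The cAMP-induced receptor gene Nr4a3, read as a check that the peptide acted, averaged 4.96 ± 0.55 (SD, n = 3) with hPTH(1-34), 1.96 ± 0.04 with bPTH(7-34) and 2.17 ± 0.11 with vehicle. All 9 clock genes lay above the limit of background on each array.

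After hPTH(1-34), Nfil3, Cry1 and Clock had higher mean levels than with vehicle, and Per3, Nr1d2, Dbp and Nr1d1 had lower ones, with sizes from 1.19-fold to 1.49-fold. Cry2 was 1.15-fold higher and Per1 was 1.06-fold lower. None of these differences from vehicle passed an adjusted p of 0.05 in limma (0 of 9), where 0.451% of all 23521 tested clusters did. At an unadjusted p under 0.05 there were 5 of 9, namely Nfil3, Cry1 and Clock higher and Per3 and Nr1d2 lower, where 9.31% of the tested clusters were called. Shares and median sizes over tested clusters, here and below, include many at low levels. A mean level of at least 3 was reached by 9562 of the 23521 clusters and 8 of the 9 genes. At a mean of at least 5, after hPTH(1-34) against vehicle, 182 of 5144 clusters and 0 of 5 genes passed the adjusted threshold. No unadjusted share or median size was computed for clusters of like level. In the difference between the peptides 1 of the 9 passed the adjusted threshold, against 0.463% of clusters. This was Nfil3, which was 1.99-fold higher with hPTH(1-34) than with bPTH(7-34). The 2 comparisons that involve hPTH(1-34) share its arrays, so their values are no independent support for each other.

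**Figure D1:**
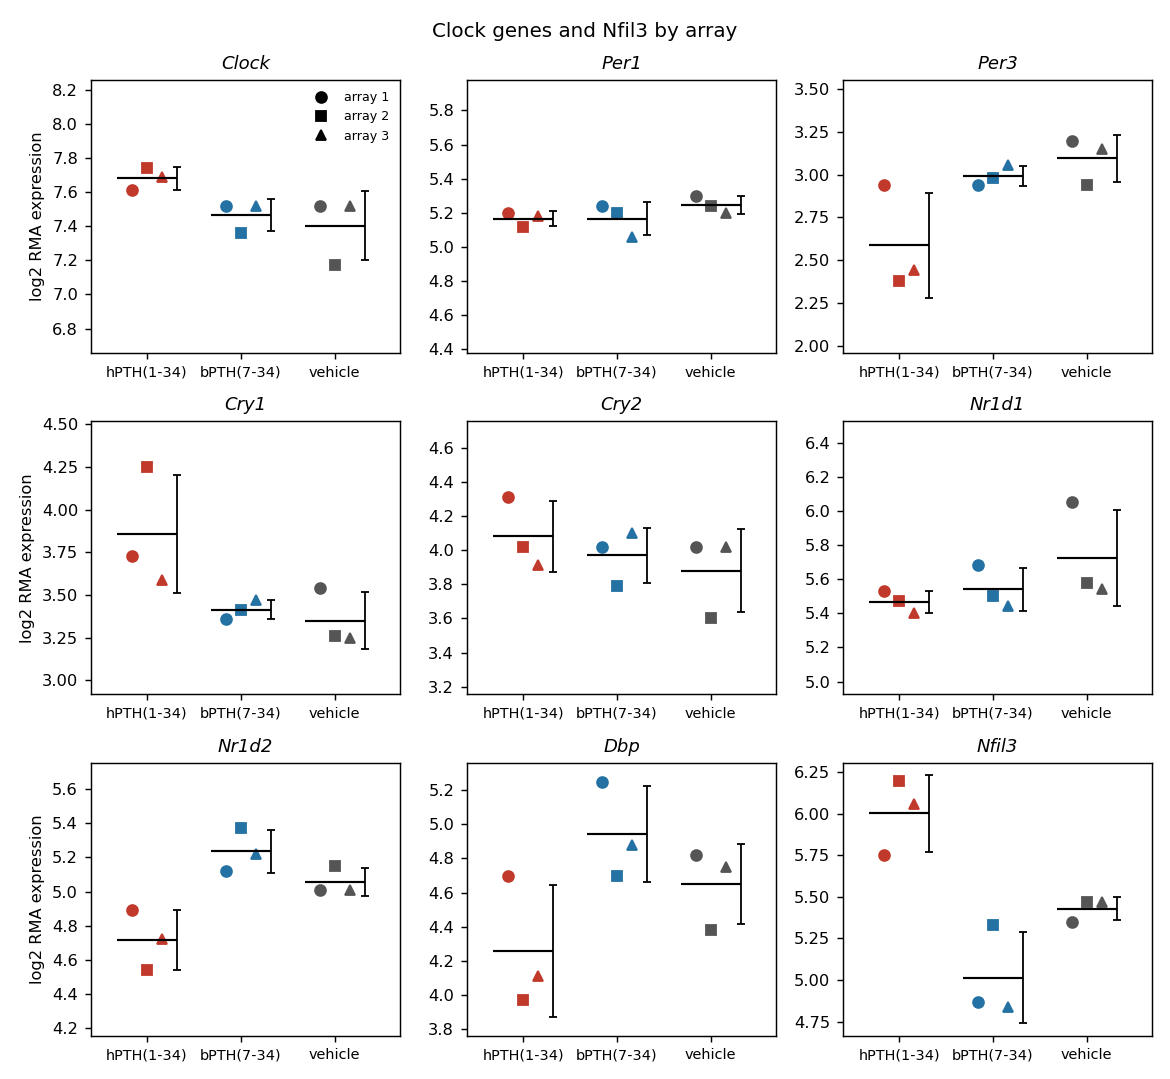
log2 RMA level (y axis, each panel spanning at least 1.6 units) of 9 genes on each array (circle, square and triangle for arrays 1, 2 and 3), with hPTH(1-34) left of bPTH(7-34) and vehicle; the horizontal line is the group mean and the bar its SD (n = 3). The 3 hPTH(1-34) arrays of Nfil3 lie between 5.75 and 6.20, above the other 6 arrays, and those of Nr1d2 lie below the other 6.

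The D-box factors come first. Nfil3, the repressor, measured 5.75, 6.20 and 6.06 with hPTH(1-34), 4.87, 5.33 and 4.84 with bPTH(7-34), and 5.35, 5.47 and 5.47 with vehicle. The groups did not overlap: each hPTH(1-34) array lay above all vehicle arrays, and each bPTH(7-34) array lay below all vehicle arrays, the closest pair being 5.33 with bPTH(7-34) and 5.35 with vehicle. The means were 6.00 ± 0.23 with hPTH(1-34), 5.01 ± 0.27 with bPTH(7-34) and 5.43 ± 0.07 with vehicle (SD, n = 3 each). hPTH(1-34) minus bPTH(7-34) was 0.99 ± 0.16 (SE, 95% interval 0.64 to 1.34), with a limma adjusted p of 0.0376. Against vehicle, hPTH(1-34) gave 0.57 ± 0.16 (interval 0.22 to 0.93, limma adjusted p = 0.234) and bPTH(7-34) gave -0.42 ± 0.16 (interval -0.77 to -0.06, adjusted p = 0.999).

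The Nfil3 difference between the peptides therefore spans a positive difference from vehicle on one side and a negative one on the other, neither of which passed by itself. Its size ran from 0.89 to 1.15 when single arrays were left out, and its call was lost in 8 of these 9 fits. All clusters called between the peptides numbered 2 to 262 in these fits, against 109 as reported. The adjusted p of Nfil3 depends on these other clusters too. The limma adjusted p was 0.0168 without hPTH(1-34) array 1, and between 0.0516 and 0.156 without any one of the other 8 arrays, vehicle arrays included. It was 0.176 in a fit of the 6 peptide arrays alone, 0.114 when all 41345 clusters were tested and 0.0565 after a further quantile normalisation. In the remaining settings it stayed under 0.05, from 0.0118 at a mean level of at least 5 to 0.0354 with 1 cluster per gene. These include the array number as a fixed block (0.0267) and as a random block (0.0273).

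**Figure D2:**
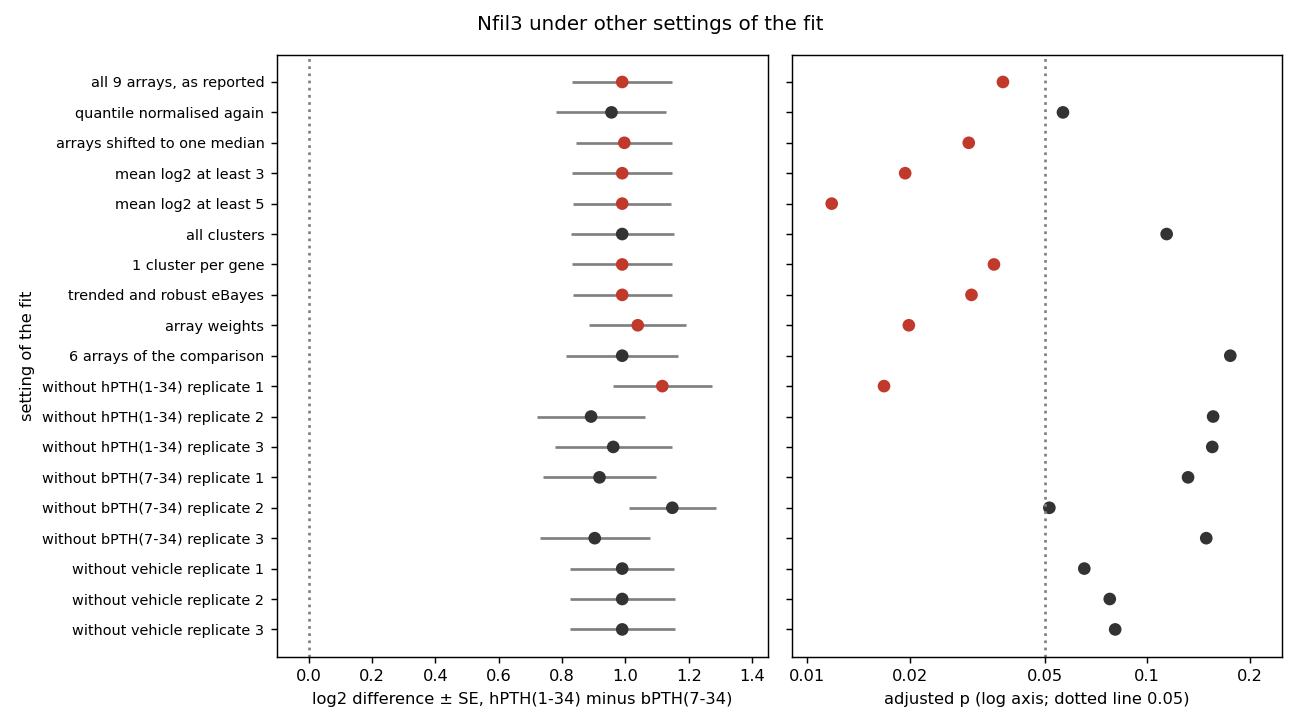
Nfil3, hPTH(1-34) minus bPTH(7-34), under each setting of the limma fit (rows) other than blocks of the array number. The left panel gives the log2 difference with its standard error, and the right panel the adjusted p on a log axis, with red for values under 0.05. The difference stays between 0.89 and 1.15 while the adjusted p lies on both sides of 0.05.

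Dbp, the D-box activator, measured 4.70, 3.97 and 4.11 with hPTH(1-34), 5.25, 4.70 and 4.88 with bPTH(7-34), and 4.82, 4.38 and 4.75 with vehicle. Arrays 2 and 3 of hPTH(1-34) were the lowest of the 9, while array 1 of that group lay among the vehicle values, so the groups overlapped. hPTH(1-34) minus vehicle was -0.39 ± 0.22 (interval -0.88 to 0.10, limma adjusted p = 0.640), and hPTH(1-34) minus bPTH(7-34) was -0.68 ± 0.22 (interval -1.17 to -0.20, adjusted p = 0.311). Leaving out hPTH(1-34) array 1 made the difference of hPTH(1-34) from vehicle -0.61, and leaving out its array 2 made it -0.245. bPTH(7-34) minus vehicle was 0.29 ± 0.22 (interval -0.19 to 0.78), and 0.14 to 0.415 with an array left out. Mean levels of Nfil3 were thus ordered hPTH(1-34), vehicle, bPTH(7-34) from high to low and those of Dbp in the opposite order, and the intervals of both Dbp differences from vehicle held 0 in the fit with treatment as its single term.

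Among the repressors of the loop, Per1 had the smallest difference from vehicle after hPTH(1-34). It measured 5.20, 5.12 and 5.18 with hPTH(1-34), 5.24, 5.20 and 5.06 with bPTH(7-34), and 5.30, 5.24 and 5.20 with vehicle. The groups overlapped, and both peptides gave -0.08 ± 0.085 against vehicle (interval -0.27 to 0.11, limma adjusted p = 0.828 for hPTH(1-34) and 0.999 for bPTH(7-34)). At 4 h a Per1 rise over vehicle larger than 0.11 on the log2 scale lies outside that interval, and earlier times were not measured.

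Per3, the family member with the 2 D-boxes printed above, measured 2.94, 2.38 and 2.44 with hPTH(1-34), 2.94, 2.98 and 3.06 with bPTH(7-34), and 3.20, 2.94 and 3.15 with vehicle. Arrays 2 and 3 of hPTH(1-34) lay below all others, while its array 1 equalled the lowest array of bPTH(7-34) and of vehicle. hPTH(1-34) minus vehicle was -0.51 ± 0.15 (interval -0.85 to -0.17, limma adjusted p = 0.280). Without hPTH(1-34) array 1 it was -0.69 ± 0.11 with an adjusted p of 0.0282. Without array 2 it was -0.41 (adjusted p = 0.617) and without array 3 it was -0.44 (adjusted p = 0.616). All clusters called in this comparison numbered 259 without array 1, against 106 as reported. The level of Per3 was low, with a mean of 2.89 over the 9 arrays. hPTH(1-34) minus bPTH(7-34) was -0.41 ± 0.15 (adjusted p = 0.417), and bPTH(7-34) minus vehicle was -0.10 ± 0.15 (interval -0.44 to 0.23).

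Cry1 measured 3.73, 4.25 and 3.59 with hPTH(1-34), 3.36, 3.41 and 3.47 with bPTH(7-34), and 3.54, 3.26 and 3.25 with vehicle. Each hPTH(1-34) array lay above the other 6, by 0.05 at the closest, and array 2 alone stood well apart. hPTH(1-34) minus vehicle was 0.51 ± 0.17 (interval 0.13 to 0.88, limma adjusted p = 0.349), and hPTH(1-34) minus bPTH(7-34) was 0.44 ± 0.17 (adjusted p = 0.424). Without hPTH(1-34) array 2 these differences were 0.31 and 0.25. Its relative Cry2 measured 4.31, 4.02 and 3.91 with hPTH(1-34), 4.02, 3.79 and 4.10 with bPTH(7-34), and 4.02, 3.60 and 4.02 with vehicle. These groups overlapped throughout, and hPTH(1-34) minus vehicle was 0.20 ± 0.15 (interval -0.15 to 0.55, adjusted p = 0.745), but 0.06 without vehicle array 2 and 0.085 without hPTH(1-34) array 1.

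The REV-ERB genes had lower means with hPTH(1-34) than with vehicle. Nr1d2, which encodes REV-ERB beta, measured 4.89, 4.54 and 4.72 with hPTH(1-34), 5.12, 5.37 and 5.22 with bPTH(7-34), and 5.01, 5.15 and 5.01 with vehicle. All 3 hPTH(1-34) arrays were below the other 6, while bPTH(7-34) and vehicle overlapped. hPTH(1-34) minus bPTH(7-34) was -0.52 ± 0.11 (interval -0.78 to -0.26, limma adjusted p = 0.113), next after Nfil3 among the 9 genes by its p. That adjusted p was 0.0330 when tests were limited to the 5144 clusters with a mean level of at least 5. The mean of Nr1d2 over the 9 arrays, 5.003, only just reached that filter, and its hPTH(1-34) mean was 4.72. With an array left out the limma adjusted p between the peptides ran from 0.058 to 0.340. hPTH(1-34) minus vehicle was -0.34 ± 0.11 (interval -0.60 to -0.08, adjusted p = 0.376), and bPTH(7-34) minus vehicle was 0.18 ± 0.11 (interval -0.08 to 0.44).

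Nr1d1, which encodes REV-ERB alpha, measured 5.53, 5.47 and 5.40 with hPTH(1-34), 5.68, 5.50 and 5.44 with bPTH(7-34), and 6.05, 5.58 and 5.54 with vehicle. hPTH(1-34) and vehicle did not overlap, but their closest arrays differed by 0.01, and vehicle array 1 stood above all the rest. hPTH(1-34) minus vehicle was -0.26 ± 0.14 (interval -0.57 to 0.06, limma adjusted p = 0.638), and without vehicle array 1 it was -0.09. bPTH(7-34) minus vehicle was -0.18 ± 0.14 (interval -0.50 to 0.13).

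Clock, the activator of the loop, measured 7.61, 7.74 and 7.69 with hPTH(1-34), 7.52, 7.36 and 7.52 with bPTH(7-34), and 7.52, 7.17 and 7.52 with vehicle. The 3 hPTH(1-34) arrays lay above the other 6. hPTH(1-34) minus vehicle was 0.28 ± 0.11 (interval 0.02 to 0.54, limma adjusted p = 0.492), and hPTH(1-34) minus bPTH(7-34) was 0.21 ± 0.11 (interval -0.05 to 0.47, adjusted p = 0.631). Without vehicle array 2, the lowest of the 9, hPTH(1-34) minus vehicle was 0.16. Clock had the identical value 7.52 on 4 arrays, Cry2 had 4.02 on 4 arrays and Per3 had 2.94 on 3 arrays. Such repeats at 2 decimals are common in this table, with 43.7% of tested clusters sharing one value on 3 or more arrays.

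**Figure D3:**
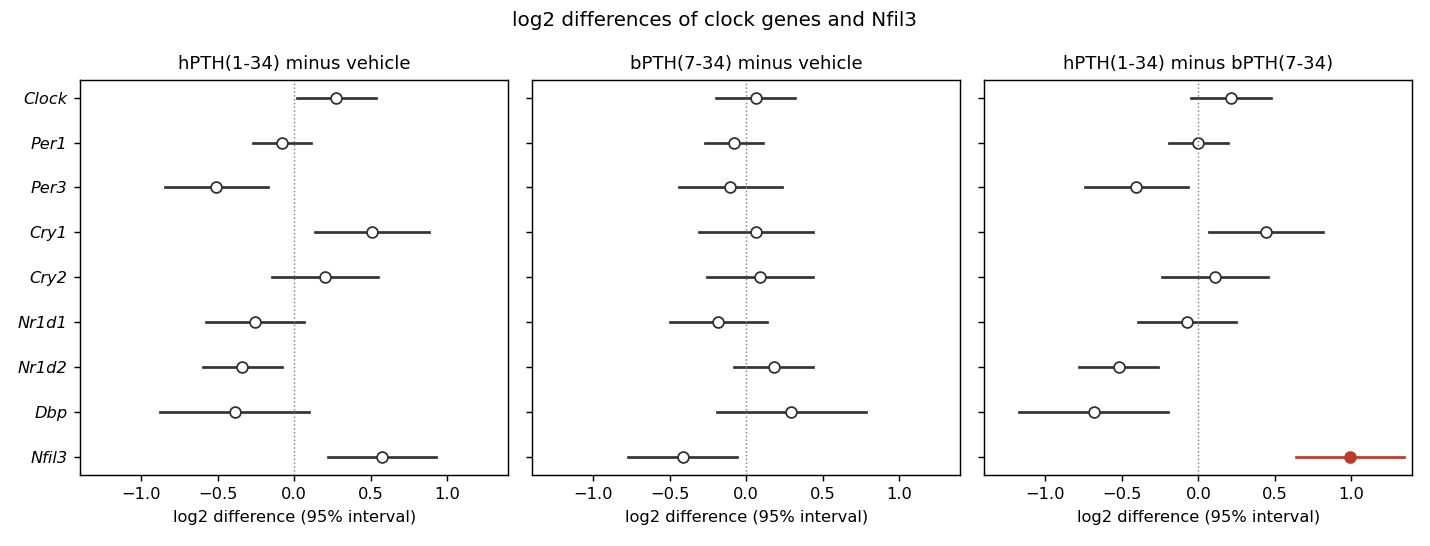
log2 differences (points) with 95% intervals from limma (lines) for the 9 genes in 3 comparisons; red marks an adjusted p under 0.05. Nfil3 between the peptides, at 0.99, is the only red point, and the intervals of bPTH(7-34) minus vehicle hold 0 for the other 8 genes.

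For hPTH(1-34) against vehicle the 9 differences had a median size of 0.34, where the median over all tested clusters was 0.11, with 4 positive and 5 negative. Groups did not overlap for 5 of the 9, where this held for 10.7% of tested clusters. For hPTH(1-34) against bPTH(7-34) the median size was 0.41, against 0.11 over all clusters. Of the 9, 5 had an unadjusted p under 0.05 (background 9.52%), Nfil3 and Cry1 higher and Per3, Nr1d2 and Dbp lower, and 4 did not overlap (background 11.1%). bPTH(7-34) against vehicle gave 0 of 9 past the adjusted threshold in limma (background 0%), and 1 of 9, Nfil3, at an unadjusted p under 0.05 (background 3.32%). The median size there was 0.10, against 0.09 over all clusters, and the bounds of the intervals for these genes lay a median of 0.34 from the estimate. The Nfil3 arrays were the only ones of the 9 genes that did not overlap between bPTH(7-34) and vehicle (background 5.29%).

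The arrays of the hPTH(1-34) group were not alike. For 7 of the 9 genes array 1 was the hPTH(1-34) array nearest to the vehicle mean, array 2 for 0 and array 3 for 2 (Cry1 and Cry2). Over all tested clusters array 1 was the nearest for 37.6%. Across the groups, array number 1 held the highest value of all 3 groups for Per1, Nr1d1 and Dbp, and some one number did so for 12.7% of tested clusters. Whether arrays of one number share a preparation is not stated.

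Of 26 other clock and clock output genes, 23 had a cluster of their own. None passed the adjusted threshold in limma in any of the 3 comparisons. Against vehicle, hPTH(1-34) gave 5 higher and 3 lower at an unadjusted p under 0.05 (background 5.53% higher and 3.78% lower), and bPTH(7-34) gave 0 of 23. Between the peptides there were 4 higher and 2 lower (background 5.3% higher and 4.22% lower). For hPTH(1-34) against vehicle the 23 differences, 13 positive and 10 negative, had a median of 0.03 and a median size of 0.24, against a median size of 0.11 over all tested clusters. The median size was 0.06 for bPTH(7-34) against vehicle (0.09 over all clusters) and 0.19 between the peptides (0.11 over all clusters).

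Bhlhe40, which encodes DEC1, a repressor that competes at E-boxes, had the smallest p over the 3 groups among these genes. It measured 5.24, 5.46 and 5.32 with hPTH(1-34), 4.67, 4.80 and 4.34 with bPTH(7-34), and 4.75, 4.63 and 4.53 with vehicle, so the hPTH(1-34) arrays stood apart from the rest. hPTH(1-34) minus vehicle was 0.70 ± 0.13 (limma adjusted p = 0.0689) and hPTH(1-34) minus bPTH(7-34) was 0.74 ± 0.13 (adjusted p = 0.0562). Arntl, the partner of Clock, measured 5.71, 5.91 and 5.29 with hPTH(1-34), 5.19, 4.73 and 5.05 with bPTH(7-34), and 5.21, 4.89 and 4.96 with vehicle. Its hPTH(1-34) arrays lay above the others, and hPTH(1-34) minus vehicle was 0.62 ± 0.18 (adjusted p = 0.274).

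Tef, a D-box activator related to Dbp, measured 1.96, 2.07 and 2.16 with hPTH(1-34), 2.37, 2.42 and 2.68 with bPTH(7-34), and 2.37, 2.37 and 2.45 with vehicle. The hPTH(1-34) arrays were below the rest, and hPTH(1-34) minus vehicle was -0.33 ± 0.11 (limma adjusted p = 0.330), at a level little above background. Wee1, a cell cycle kinase gene under clock control in liver, averaged 3.06 ± 0.37 with hPTH(1-34), 3.77 ± 0.14 with bPTH(7-34) and 3.96 ± 0.26 with vehicle (SD, n = 3 each). Its hPTH(1-34) minus vehicle difference was -0.90 ± 0.20 (adjusted p = 0.121). The deubiquitinase gene Usp2 averaged 4.18 ± 0.14 with hPTH(1-34), 3.69 ± 0.13 with bPTH(7-34) and 3.64 ± 0.15 with vehicle, and Timeless 3.30 ± 0.25 with hPTH(1-34), 2.66 ± 0.20 with bPTH(7-34) and 2.86 ± 0.09 with vehicle. Their differences from vehicle after hPTH(1-34) were 0.54 ± 0.12 (adjusted p = 0.124) and 0.44 ± 0.15 (adjusted p = 0.365).

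**Figure D4:**
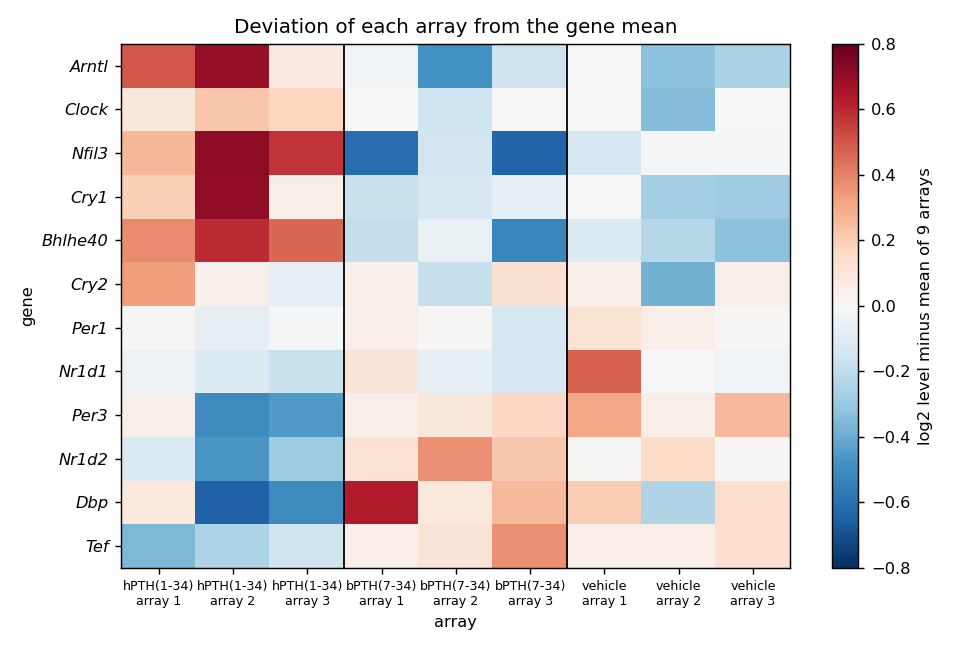
Level of each array minus the mean of the 9 arrays (colour, log2 scale) for 9 clock genes and Arntl, Bhlhe40 and Tef (rows), with hPTH(1-34) left, bPTH(7-34) in the middle and vehicle right. These 3 further genes and the order of rows were chosen by hand. Usp2, Wee1 and Timeless, with a smaller p over the 3 groups than Tef and Arntl, are not shown. Arntl, Clock, Nfil3, Cry1 and Bhlhe40 are positive on all 3 hPTH(1-34) arrays, and Nr1d1, Nr1d2 and Tef are negative on them; Dbp and Per3 are slightly positive on hPTH(1-34) array 1.

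**Figure D5:**
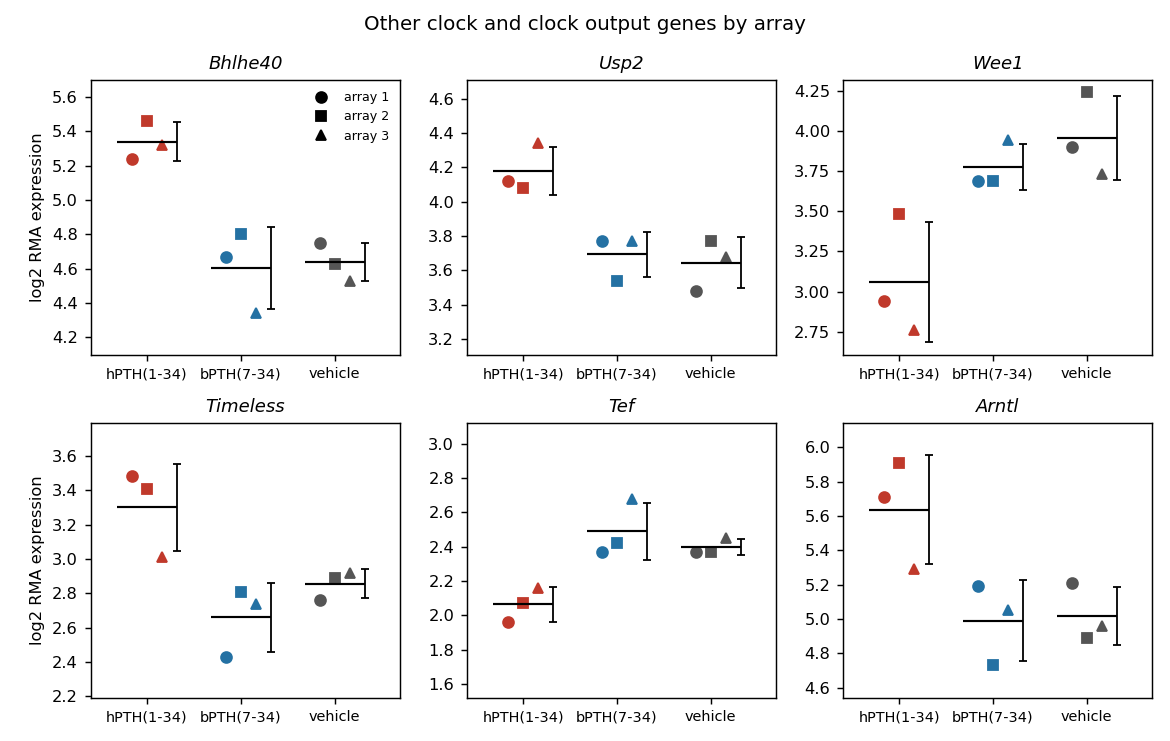
log2 RMA level (y axis) of the 6 other clock genes with the smallest p over the 3 groups, by array, with hPTH(1-34) left of bPTH(7-34) and vehicle; lines are means and bars SD (n = 3). The hPTH(1-34) arrays of Bhlhe40 lie from 5.24 to 5.46, above the other 6.

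Among 5027 genes with a mean level of at least 5, those whose values over the 9 arrays were most like Nfil3 were Nus1 (Pearson r = 0.950), Dnajb9 (0.946), Cct3 (0.945), Rbm17 (0.940) and Nup50 (0.937). Nus1 averaged 8.10 with hPTH(1-34), 7.62 with bPTH(7-34) and 7.73 with vehicle, the same order of groups as Nfil3, and its hPTH(1-34) minus bPTH(7-34) difference was 0.49 (limma adjusted p = 0.0793). The most similar gene was Cert1 for Nr1d2 (r = 0.982), 2610507B11Rik for Clock (0.978), Gpkow for Cry1 (0.972), Kpna3 for Per3 (0.971), Heg1 for Dbp (0.966), Six2 for Cry2 (0.955), Sgsh for Nr1d1 (0.953) and Tmem242 for Per1 (0.896). These are the highest of 5027 correlations over 9 arrays that share the treatment groups, and they are given as a description.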

How the data were processed

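RNA (100 ng) of 9 osteoblast samples was measured on Affymetrix Mouse Gene 2.0 ST arrays. The deposited values are log2 expression levels of transcript clusters. The authors used RMA in Affymetrix Expression Console, per the submitters' processing notes (versions not given in the sources used here). Scanner files were not used, and precision is limited by how many arrays there are. GEO's platform annotation gave 23521 of 41345 clusters a single symbol, 1814 several and 16010 none. A gene was read from its brightest single-symbol cluster over the 9 arrays.

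Groups, taken from the sample titles, were compared in 1 fit with limma 3.58.1 (lmFit, eBayes; R 4.3.3), with treatment as its single term, two-sided tests and Benjamini-Hochberg adjustment over 23521 clusters and a threshold of 0.05. Errors of differences are standard errors from that fit, and the test was checked on simulated data. The simulated arrays were independent, so that check does not cover spread shared by same-numbered arrays. The array number stayed out of the fit because no label states that a preparation was divided among the treatments. Same-numbered arrays did correlate in their deviations from group means, by 0.065 to 0.364 and over 0.1 in 6 of 9 pairs. Fits with the array number as a block are therefore given as alternatives. Named genes were the 10 listed, the 6 other clock genes with the smallest F-test p, and the most similar genes by Pearson correlation. Alternatives were blocks, scaling, filters, eBayes options, array weights, fewer arrays and each array left out. Members, lists and tests were chosen with earlier results of these data known. Plots used matplotlib 3.10.9.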

Additional observations from a re-analysis of the deposited data

How the results depend on the processing

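No other setting turned the direction of a difference that passed the threshold. Of the 27 differences (9 genes in 3 comparisons) under up to 20 alternatives each, 525 values in all, 509 kept direction and call, 11 lost the call, 2 gained one and 3 changed sign. All 11 losses are Nfil3 between the peptides, and the gains are Per3 against vehicle without hPTH(1-34) array 1 and Nr1d2 between the peptides at a mean level of at least 5. The sign changes were near 0: Cry2 between the peptides without hPTH(1-34) array 1 (-0.005), and Cry2 (-0.05) and Clock (-0.053) for bPTH(7-34) against vehicle without vehicle array 2. With an array left out these 3 ranged from -0.005 to 0.195, -0.05 to 0.18 and -0.053 to 0.122. Genes of the 9 called between the peptides numbered 0 after quantile normalisation, over all clusters and in the 6 arrays alone, 2 at a mean level of at least 5, and 0 to 1 with an array left out. Against vehicle they numbered 0 to 1 for hPTH(1-34) and 0 for bPTH(7-34) with an array left out. The level filter at 3 left out Per3, that at 5 left out Per3, Cry1, Cry2 and Dbp, and no gene had another single-symbol cluster to read. Cry2 had 1 further cluster, with several symbols, which was not read.

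All clusters called for hPTH(1-34) against vehicle, 106 as reported, numbered 186 and 182 at a mean level of at least 3 and 5, 16 over all clusters, 166 with array weights, 0 in the 6 arrays, and 0 to 259 with an array left out. Between the peptides, 109 as reported, they numbered 215 and 211 at these levels, 3 over all clusters, 204 with array weights, 0 in the 6 arrays, and 2 to 262 with an array left out. For bPTH(7-34) they were 0 in each setting. The replicate block gave Nfil3 between the peptides an adjusted p of 0.0267 and changed no call of the 9 genes. With it 7 of 9 had an unadjusted p under 0.05 for hPTH(1-34) against vehicle, Nr1d1 and Dbp being added, and 2 of 9 for bPTH(7-34) against vehicle, Dbp being added. No unadjusted share over all tested clusters was computed with the block, so these 2 counts have no background beside them. At each array number Dbp was lower with hPTH(1-34) and higher with bPTH(7-34) than with vehicle, and with the replicate block its unadjusted p was 0.00966 and 0.0341 for these (adjusted 0.242 and 0.994), and its adjusted p between the peptides 0.0594. With the replicate block clusters called numbered 112 and 116 in the hPTH(1-34) comparisons. Of the 9 arrays, 8 correlated best with their own number, a hint from the data and not the design.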
